A study of Mus musculus with 12 samples.

Results

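Genes of cholesterol synthesis, uptake and efflux were followed in white adipose tissue of mice kept in the cold. The set held 29 genes chosen by symbol. There were 18 enzymes of synthesis, 4 genes that sense sterols and control synthesis, 3 genes of sterol uptake, transfer and storage, and 4 genes of efflux and its control. Of the 29 genes, 26 were named by a probe set of the array annotation used, among 18194 genes so named. For each gene the brightest probe set naming it, by the mean of the 12 arrays, was taken. All 26 were bright enough to test, above log2 4 on at least 3 arrays, among 12856 such genes. Acat2, Soat1 and Nr1h2 were not analysed here.

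RNA was measured on 12 Affymetrix arrays, 3 in each of 4 groups, from white fat of C57/BL6 males that were 6 to 8 weeks old. Mice had lived at 22 °C. According to the labels they spent 1 to 3 weeks at 18 °C to adapt, and cold mice were then held at 4 °C for 1 week or for 5 weeks. Each time had its own controls. Sample titles put these controls at 30 °C, whereas their source names say room temperature, and no label says whether controls passed through 18 °C. No transgene or drug is named for any group, nor is the fat depot. Nothing states that arrays of 1 group are from different mice, so p-values measure only how far these arrays differ, a spread that may be technical. In such bulk tissue, fewer cells of a type and less RNA per cell cannot be told apart.

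Cholesterol is built from acetyl-CoA by way of mevalonate, farnesyl diphosphate, squalene and lanosterol. When membranes hold little sterol, SCAP carries the precursor of SREBP-2, the product of Srebf2, from the endoplasmic reticulum to the Golgi, where cleavage frees a transcription factor that raises the synthesis genes. INSIG proteins hold SCAP back when sterols are plentiful. Liver X receptors bind oxysterols and raise ABCA1 and ABCG1, pumps that pass cholesterol to lipoprotein particles. White adipocytes store free cholesterol in and around their lipid droplet and take much of it from lipoproteins, and macrophages are another cell type rich in these pumps.

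Promoters of 23 of the 29 genes, in 30 windows, were found in the RefSeq promoter table of build GRCm38.p6. Each window ran from 250 bases before to 50 bases after a transcription start, and 27025 genes had at least 1 window. Both strands were searched for TCACNCCAC, a short form of the sterol element bound by SREBP, and for CCAAT, the box bound by NF-Y, a factor known to act beside SREBP. The sterol form was found in 1 of the 23 genes (Hmgcs1), against 1.44% of all genes in the table. No gene of the set had it with an A before it, a longer form that 0.27% of all genes held. The CCAAT box was found in 18 of the 23 genes (78.3%) and in 14 of 15 synthesis genes (93.3%), against 41.1% of all genes. Acat2 was the synthesis gene without it. The E-box CACGTG was found in 6 of the 23 genes (26.1%), against 8.09%. The liver X receptor form, GGTCA repeated after a gap of 4 letters, was found in 0 of the 23 and in 0.0518% of all genes. These matches describe letters in the window and not binding sites.

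The 250 bases before the start are printed for 4 synthesis genes, 5′ to 3′ on the strand of the gene, with the sterol form and CCAAT (or its reverse complement ATTGG) in capitals. Hmgcs1 (chr13:119690101-119690350, plus strand) is shown as the gene with the sterol form, Lss (chr10:76531355-76531604, plus) and Nsdhl (chrX:72918271-72918520, plus) as genes that rose at both times, and Tm7sf2 (chr19:6067851-6068100, minus) as a gene that rose at 1 week and showed no change past the test at 5 weeks.
Hmgcs1: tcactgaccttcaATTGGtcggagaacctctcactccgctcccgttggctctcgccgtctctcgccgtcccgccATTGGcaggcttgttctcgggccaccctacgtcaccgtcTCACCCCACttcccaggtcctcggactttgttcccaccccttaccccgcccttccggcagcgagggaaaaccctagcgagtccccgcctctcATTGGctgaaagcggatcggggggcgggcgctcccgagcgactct
Lss: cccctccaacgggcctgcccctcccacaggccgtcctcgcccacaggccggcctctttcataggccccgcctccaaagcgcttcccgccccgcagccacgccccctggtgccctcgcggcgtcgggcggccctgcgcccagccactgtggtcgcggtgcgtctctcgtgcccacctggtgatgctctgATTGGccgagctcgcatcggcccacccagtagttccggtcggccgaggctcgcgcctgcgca
Nsdhl: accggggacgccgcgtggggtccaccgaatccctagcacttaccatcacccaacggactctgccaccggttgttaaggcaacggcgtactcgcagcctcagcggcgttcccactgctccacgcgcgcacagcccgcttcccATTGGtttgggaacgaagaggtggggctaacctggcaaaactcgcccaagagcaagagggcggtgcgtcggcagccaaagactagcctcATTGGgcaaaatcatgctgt
Tm7sf2: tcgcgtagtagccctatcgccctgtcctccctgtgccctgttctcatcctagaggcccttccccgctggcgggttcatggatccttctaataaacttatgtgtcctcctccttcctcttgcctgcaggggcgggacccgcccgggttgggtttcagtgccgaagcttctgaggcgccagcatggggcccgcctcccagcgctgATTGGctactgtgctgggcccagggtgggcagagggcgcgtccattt
The sterol form of Hmgcs1 began at position -137 from the start, between CCAAT boxes at -176 and -45. Lss held 1 box at -62, Tm7sf2 1 at -47, and Nsdhl 2 at -109 and -20.

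Signals were on a log2 scale, and the median of an array was 4.79 to 4.89. Precision is limited by the number of arrays. White adipocyte markers were bright in every group, with means over 10 tested genes of 12.5 to 13.1. All 10 brown and beige adipocyte markers rose at both times, and their mean signal was 6.84 to 7.63 in the controls of both times, 11.7 to 12.1 in the cold at 1 week and 11.2 to 11.8 at 5 weeks. The part of brown and beige adipocytes in the results below was not tested. RNA quality differed between arrays. The 3′ minus 5′ log2 signal of the Gapdh control probe sets was 3.00 and 3.12 on control replicates 2 and 3 of 1 week and 3.01 on cold replicate 3 of 5 weeks, and -0.08 to 0.96 on the other 9 arrays. That of Actb was 1.84 to 2.80 in the cold at 5 weeks and 1.01 to 1.35 on the other 9 arrays. Skeletal muscle markers, 15 tested, averaged 9.94 on cold replicate 2 of 1 week and 8.23 to 8.53 in the 5 week controls, against 4.94 to 5.76 elsewhere.

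Synthesis genes were mostly higher after 1 week in the cold. Of the 17 measured, 12 rose, 1 (Msmo1) fell and 4 did not pass the test. A gene is said to have risen or fallen, or to be called, where limma's Benjamini-Hochberg adjusted p over the 12856 genes was under 0.05. Among all genes tested, 49.5% were called at 1 week, 17.9% higher and 31.6% lower. The median log2 difference, cold minus control, was 0.46 over the synthesis genes and -0.08 over all genes, and 16 of the 17 were above 0. Pmvk, Fdps, Lss, Tm7sf2 and Nsdhl rose at least 2-fold, as 4.04% of all genes did, and 0 fell as far, against 6.38%. The 3 cold arrays all lay above the 3 controls in 12 synthesis genes and below them in 1, against 26.0% and 33.7% of all genes (59.7% in either direction). The balance over all genes depends on scaling. As deposited, 36.2% of the genes called at 1 week were higher. With each array centred on its median over tested genes, 63.9% were, and the median over all genes moved to 0.14. There 15 synthesis genes rose and 0 fell, against 35.8% and 20.2% of all genes. After quantile normalization 45.8% of called genes were higher, and 14 synthesis genes rose while 0 fell, against 21.7% and 25.7% of all genes.

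At 5 weeks, 7 of the 17 synthesis genes were higher, 2 (Msmo1 and Ebp) were lower and 8 did not pass the test. Among all genes 36.2% were called, 15% higher and 21.2% lower. None of the 17 moved 2-fold, as 2.68% of all genes did upward and 3.54% downward. The median log2 difference was 0.37 over synthesis genes and -0.03 over all genes. Cold arrays lay above the controls in 10 synthesis genes and below in 3, against 28.3% and 30.7% of all genes (59.0% in either direction). As deposited 41.4% of called genes were higher, and 66.6% with centred arrays or 53.2% after quantile normalization. Under either of these scalings 10 synthesis genes rose and 2 fell. Of all genes 27.8% rose and 13.9% fell with centred arrays, and 18.6% and 16.4% after quantile normalization. Pmvk, Idi1, Lss, Nsdhl and Dhcr7 rose at both times, as 8.58% of all genes did. Msmo1 fell at both, as 12.5% did. Ebp rose at 1 week and fell at 5, an opposite pair of calls that 1.63% of all genes had.

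**Figure D1:**
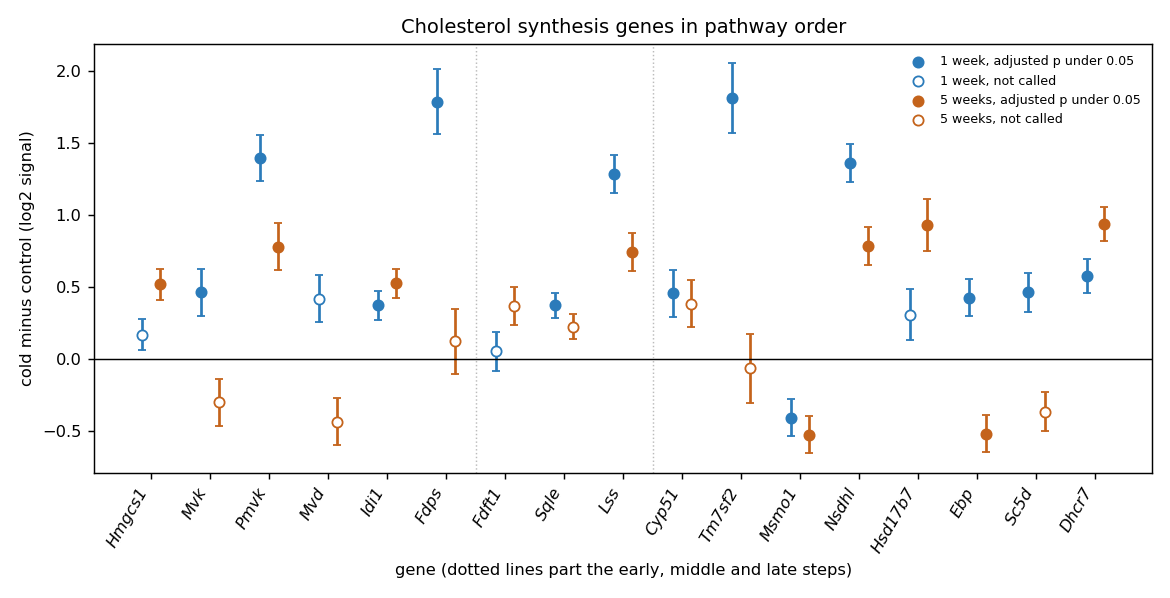
Log2 difference, cold minus control, with its standard error for the 17 synthesis genes in pathway order; blue points are 1 week, orange points 5 weeks, and filled points have a limma adjusted p under 0.05. Fdps (1.79) and Tm7sf2 (1.81) stand highest at 1 week and lie at 0.12 and -0.07 at 5 weeks, while Hsd17b7 (0.93) and Dhcr7 (0.94) stand highest at 5 weeks.

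Of the 6 early enzymes measured, from acetyl-CoA to farnesyl diphosphate, 4 rose at 1 week and 3 at 5 weeks, and 0 fell. Pmvk, phosphomevalonate kinase, read log2 9.97, 9.44 and 9.38 in the 1 week controls and 10.87, 11.24 and 10.86 in the cold. At 5 weeks its controls read 9.51, 9.62 and 9.45 and the cold arrays 10.48, 10.25 and 10.20. At both times all cold arrays were above all controls, with the cold arrays of 1 week above those of 5 weeks. Pmvk was 2.63-fold higher at 1 week (log2 1.40, SE 0.16, adjusted p = 5.63e-05) and 1.72-fold higher at 5 weeks (0.78, adjusted p = 0.0032).

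Fdps, farnesyl diphosphate synthase, makes the intermediate from which sterols and several other isoprenoids branch. Its signal was 9.89, 9.14 and 9.35 in the 1 week controls and 11.07, 11.30 and 11.36 in the cold. Its 5 week values were 9.36, 9.44 and 9.40 in controls and 9.87, 9.71 and 8.98 in the cold. The groups were far apart at 1 week and overlapped at 5 weeks, where cold replicate 3 was the lowest of the 12 arrays. The difference was 3.45-fold at 1 week (log2 1.79, SE 0.23, adjusted p = 0.00010) and 0.12 in log2 at 5 weeks (adjusted p = 0.70).

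Idi1, the isomerase that makes dimethylallyl diphosphate, read 10.72, 10.61 and 10.53 in the 1 week controls and 10.87, 10.93 and 11.19 in the cold. By 5 weeks the signal was 10.17, 10.18 and 10.15 in controls and 10.83, 10.63 and 10.62 in the cold. Cold arrays were above their own controls at both times, and 2 of the 3 cold arrays of 5 weeks lay within the range of the 1 week controls. The rise was 1.30-fold at 1 week (log2 0.37, SE 0.10, adjusted p = 0.010) and 1.44-fold at 5 weeks (0.53, adjusted p = 0.0022).

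Hmgcs1, the cytosolic synthase that feeds HMG-CoA into the pathway, read 13.14, 13.28 and 12.98 in the 1 week controls and 13.49, 13.16 and 13.27 in the cold. At 5 weeks its controls read 12.75, 12.93 and 12.88 and the cold arrays 13.43, 13.39 and 13.30. The groups overlapped at 1 week and stood apart at 5 weeks, where the difference was 1.43-fold (log2 0.52, SE 0.11, adjusted p = 0.00325). At 1 week it was 0.17 (adjusted p = 0.21).

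Mvk, mevalonate kinase, overlapped between groups at both times. It read 7.78, 7.12 and 7.40 in the 1 week controls and 7.88, 7.76 and 8.05 in the cold, a rise of 0.47 in log2 (SE 0.16, adjusted p = 0.034). That call was lost without control replicate 2 (0.31), control replicate 3 (0.45), cold replicate 1 (0.47) or cold replicate 3 (0.39) of 1 week. Mvd, mevalonate diphosphate decarboxylase, read 7.07, 7.10 and 6.96 in the 1 week controls and 7.37, 7.77 and 7.24 in the cold (0.42, adjusted p = 0.053). At 5 weeks the differences were -0.30 for Mvk (adjusted p = 0.175) and -0.43 for Mvd (adjusted p = 0.058).

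The 3 middle enzymes lead from farnesyl diphosphate to lanosterol. Lss, lanosterol synthase, closes the sterol rings. It read 8.60, 8.19 and 8.26 in the 1 week controls and 9.42, 9.78 and 9.71 in the cold. Its 5 week controls read 8.37, 8.33 and 8.33 and the cold arrays 9.27, 8.99 and 8.99. Cold arrays stood above all controls at both times. The rise was 2.44-fold at 1 week (log2 1.28, SE 0.13, adjusted p = 2.82e-05) and 1.67-fold at 5 weeks (0.74, adjusted p = 0.0013).

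Sqle, squalene epoxidase, an oxygen-using and rate-limiting step, read 8.30, 8.29 and 8.15 in the 1 week controls and 8.58, 8.75 and 8.53 in the cold. The 5 week arrays read 7.73, 7.82 and 7.77 in controls and 8.04, 8.02 and 7.94 in the cold. Cold arrays were above their controls at both times, and every 5 week array was below every 1 week array. The differences were 0.37 at 1 week (SE 0.08, adjusted p = 0.0038) and 0.23 at 5 weeks (adjusted p = 0.0575). Fdft1, squalene synthase, differed by 0.05 at 1 week (adjusted p = 0.75), and by 0.37 at 5 weeks (adjusted p = 0.0504), where cold arrays at 10.20 to 10.32 lay above controls at 9.82 to 9.97.

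Among the 8 late enzymes, from lanosterol to cholesterol, 6 rose and 1 fell at 1 week, and 3 rose and 2 fell at 5 weeks. Tm7sf2, a sterol reductase that acts after Cyp51, read 6.20, 5.88 and 6.03 in the 1 week controls and 7.15, 8.07 and 8.31 in the cold. In the 5 week groups it read 6.10, 6.07 and 6.18 in controls and 6.32, 5.92 and 5.92 in the cold. Only the 3 cold arrays of 1 week were above 6.32 among the 12. The difference was 3.51-fold at 1 week (log2 1.81, SE 0.24, adjusted p = 0.00014) and -0.07 at 5 weeks (adjusted p = 0.855).

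Nsdhl, a dehydrogenase that takes part in removing the methyl groups at carbon 4 of the sterol, read 10.01, 9.59 and 9.59 in the 1 week controls and 10.99, 11.08 and 11.21 in the cold. After 5 weeks its signal was 9.78, 9.80 and 9.91 in controls and 10.80, 10.61 and 10.43 in the cold. All 6 cold arrays were above all 6 controls. The rise was 2.57-fold at 1 week (log2 1.36, SE 0.13, adjusted p = 1.96e-05) and 1.72-fold at 5 weeks (0.78, adjusted p = 0.00094).

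Msmo1 and Hsd17b7 act in the same removal of methyl groups as Nsdhl. Msmo1, the oxidase, read 9.90, 9.92 and 9.96 in the 1 week controls and 9.33, 9.67 and 9.55 in the cold. Values at 5 weeks were 9.42, 9.53 and 9.55 in controls and 9.18, 9.07 and 8.68 in the cold. Cold arrays were below their controls at both times, the opposite of Nsdhl. The fall was 1.33-fold at 1 week (log2 -0.41, SE 0.13, adjusted p = 0.022) and 1.44-fold at 5 weeks (-0.52, adjusted p = 0.0086). At 1 week the call was lost with centred arrays (-0.19), after quantile normalization (-0.31), and without control replicate 2 (-0.41), control replicate 3 (-0.39) or cold replicate 1 (-0.31) of that time.

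Hsd17b7, the ketone reductase, read 7.03, 7.05 and 7.04 in the 1 week controls and 7.09, 7.85 and 7.11 in the cold (0.31, adjusted p = 0.17). Its high cold array was replicate 2, the array with high muscle markers. That array was also the highest of the 1 week cold arrays for Pmvk, Mvd, Fdft1, Sqle, Lss, Cyp51, Msmo1, Ebp and Dhcr7. It was not the highest for Hmgcs1, Mvk, Idi1, Fdps, Tm7sf2, Nsdhl and Sc5d. The 5 week values of Hsd17b7 were 6.46, 6.62 and 6.43 in controls and 7.24, 7.46 and 7.60 in the cold. That difference was 1.91-fold (log2 0.93, SE 0.18, adjusted p = 0.0021), with every cold array above every control.

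Dhcr7 makes the last reduction on the route through 7-dehydrocholesterol, the precursor of vitamin D. It read 8.59, 8.49 and 8.36 in the 1 week controls and 8.86, 9.32 and 8.99 in the cold. By 5 weeks the signal was 8.14, 8.30 and 8.20 in controls and 9.17, 9.04 and 9.23 in the cold. All cold arrays exceeded all controls across both times. Its rise was 1.49-fold at 1 week (log2 0.58, SE 0.12, adjusted p = 0.0022) and 1.91-fold at 5 weeks (0.94, adjusted p = 0.000165).

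Ebp, the sterol isomerase, read 9.23, 8.83 and 8.77 in the 1 week controls and 9.25, 9.55 and 9.31 in the cold. The 5 week arrays read 9.32, 9.28 and 9.19 in controls and 8.74, 8.84 and 8.66 in the cold. Cold arrays lay just above their controls at 1 week and clearly below them at 5 weeks. The differences were 0.43 at 1 week (SE 0.13, adjusted p = 0.016) and -0.52 at 5 weeks (adjusted p = 0.0084). The 1 week call was lost without control replicate 2 (0.37), control replicate 3 (0.34) or cold replicate 2 (0.34) of 1 week. The 5 week call was lost with the mean of the muscle markers as a covariate (-0.33), markers that were high in the 5 week controls.

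Sc5d, the desaturase that makes 7-dehydrocholesterol, read 11.40, 11.50 and 11.13 in the 1 week controls and 11.66, 11.79 and 11.98 in the cold (0.46, SE 0.13, adjusted p = 0.014). That call was lost without control replicate 3 (0.36) or cold replicate 3 (0.38) of 1 week. In the 5 week groups it read 11.18, 11.43 and 11.18 in controls and 11.09, 10.88 and 10.72 in the cold (-0.37, adjusted p = 0.052). Cyp51, which removes the methyl group at carbon 14 of lanosterol, overlapped between groups at 1 week. It read 9.32, 9.62 and 9.12 in controls and 9.47, 10.07 and 9.89 in the cold (0.46, SE 0.16, adjusted p = 0.037). The call for Cyp51 held in 6 of 12 fits that left out 1 array. It was lost without control replicate 1 (0.44), control replicate 3 (0.34), cold replicate 2 (0.33) or cold replicate 3 (0.42) of 1 week, or control replicate 1 or 2 of 5 weeks (0.46 in both). At 5 weeks Cyp51 differed by 0.39 (adjusted p = 0.0875).

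**Figure D2:**
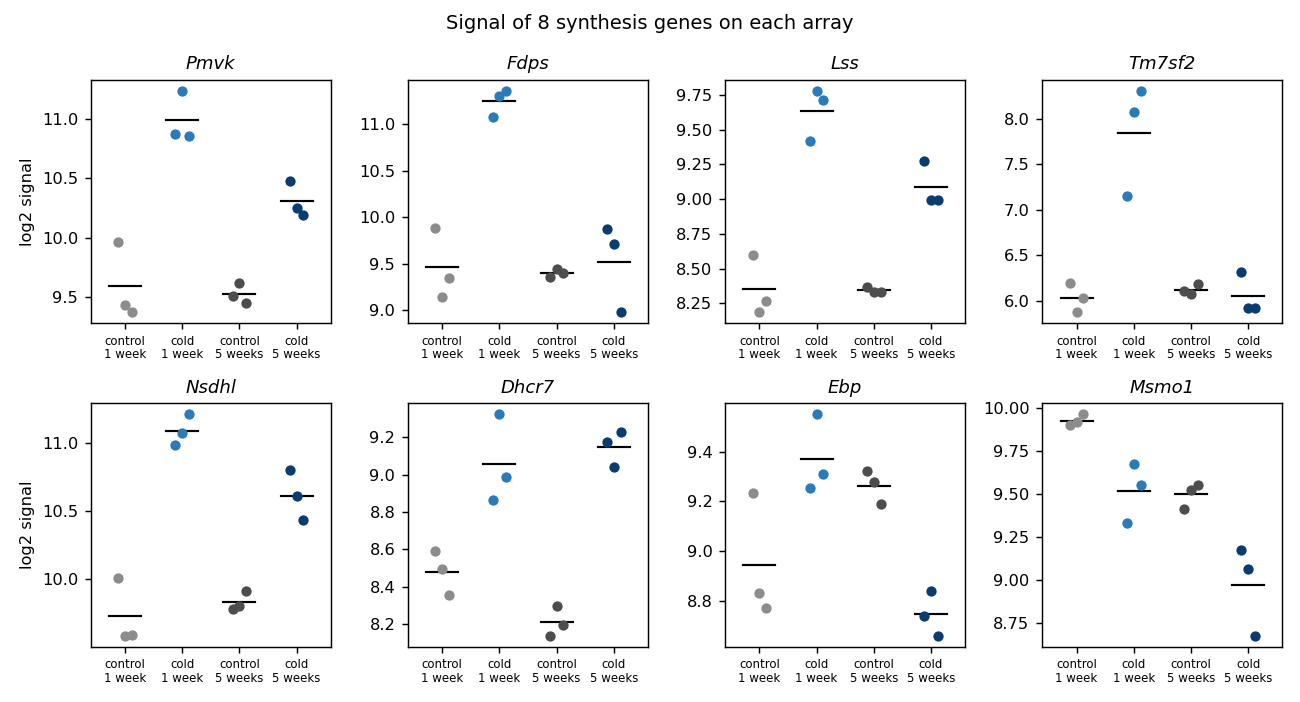
Log2 signal of 8 synthesis genes on each of the 12 arrays, in the 4 groups of 3; points are arrays and black lines are group means, and each panel has its own log2 axis that does not start at 0. Tm7sf2 and Fdps are high in the 1 week cold arrays alone, Nsdhl and Dhcr7 are higher in all 6 cold arrays than in all 6 controls, Ebp turns from above to below its controls, and Msmo1 is lower in the cold at both times.

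The controls with high Gapdh 3′ minus 5′ signal belong to the 1 week comparison. That signal did not overlap between the 1 week groups, at 0.90 to 3.12 in controls and -0.08 to 0.34 in the cold. A fit with it as a covariate therefore cannot fully part RNA quality from cold. With that signal as a covariate, 6 synthesis genes rose at 1 week in place of 12, and 3036 of all genes were called in place of 6362. The 6 were Pmvk (1.12), Fdps (1.14), Lss (1.10), Tm7sf2 (1.68), Nsdhl (1.06) and Dhcr7. Without control replicates 2 and 3 together, which leaves 1 control assumed to vary like the other groups, 5 rose. These were Pmvk (1.02), Fdps (1.36), Lss (1.03), Tm7sf2 (1.65) and Nsdhl (1.08). Mvk, Idi1, Sqle, Cyp51, Ebp and Sc5d lost their 1 week call in both fits. With the covariate and without the 2 controls, in that order, Mvk then differed by 0.16 and 0.12 and Ebp by 0.19 and 0.14, well below their reported values. Idi1 differed by 0.26 and 0.27, Sqle by 0.31 and 0.32, Sc5d by 0.32 and 0.41, and Cyp51 by 0.43 and 0.49, nearer to theirs. Dhcr7 kept its call with the covariate (0.61) and lost it without the controls (0.47), as did Msmo1 (-0.58 and -0.38).

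At 5 weeks neither the Gapdh nor the Actb 3′ minus 5′ signal overlapped between cold and control, and both were higher in the cold. With the Gapdh covariate 8 synthesis genes rose and 2 fell at 5 weeks. With the Actb covariate 1, Nsdhl (1.13), rose in place of 7 and 0 fell, and 795 of all genes were called in place of 4654. Of the rises that lost their call, those of Pmvk (0.96), Lss (0.98) and Idi1 (0.72) were larger than reported, and those of Dhcr7 (0.81), Hsd17b7 (0.71) and Hmgcs1 (0.50) smaller. Of the 2 genes called lower, Ebp then differed by -0.31 and Msmo1 by 0.0076. With the mean of the muscle markers as a covariate Ebp (-0.33) and Msmo1 (-0.34) lost their 5 week calls as well, as did Hmgcs1 (0.38) and Idi1 (0.47), whereas Fdft1 (0.65), Sqle (0.38) and Cyp51 (0.70) were called higher. The part of RNA quality and of muscle in the calls that were lost was not tested.

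**Figure D3:**
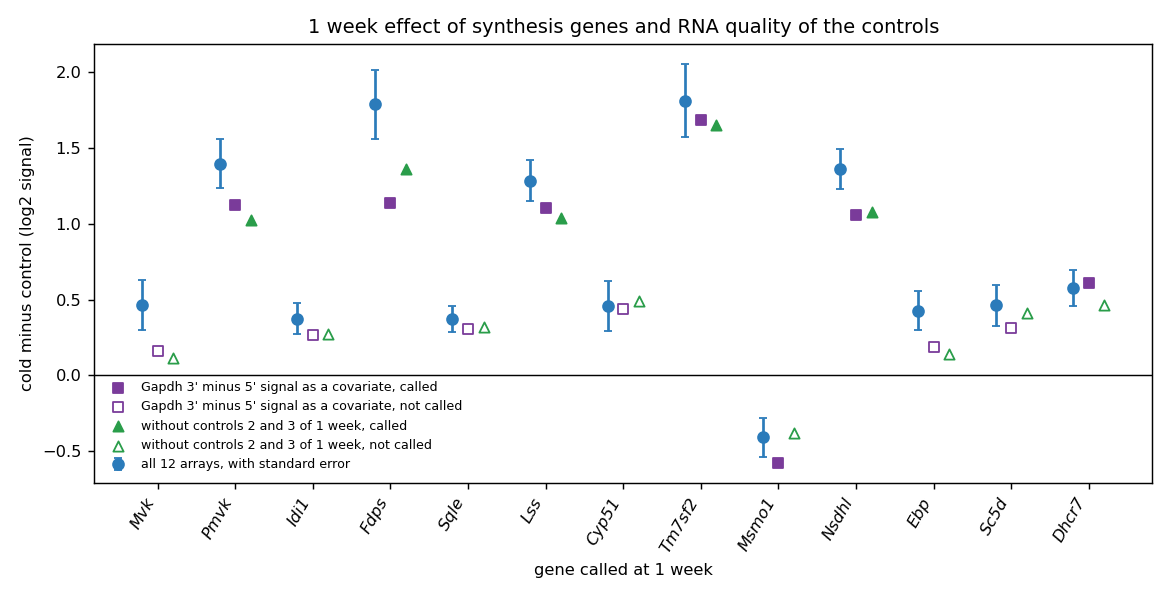
Log2 difference, cold minus control, at 1 week for the 13 synthesis genes called there, with all 12 arrays (circles, with standard error), adjusted for the Gapdh 3′ minus 5′ signal (squares) and without control replicates 2 and 3 of 1 week (triangles); filled symbols have a limma adjusted p under 0.05. Pmvk, Fdps, Lss, Tm7sf2 and Nsdhl stay above 1.0 and filled in the 3 fits, while Mvk lies at 0.16 and 0.12 and Ebp at 0.19 and 0.14 in the other two.

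Of the 4 genes that sense sterols, Insig1 rose at 1 week and 3 did not pass the test, and none passed it at 5 weeks. Among all genes 49.5% were called at 1 week and 36.2% at 5 weeks. Insig1, which retains SCAP and is itself a target of SREBP, read 9.51, 9.52 and 9.07 in the 1 week controls and 10.16, 10.53 and 10.31 in the cold. After 5 weeks its signal was 10.90, 10.74 and 10.14 in controls and 10.86, 10.76 and 10.38 in the cold. The 1 week controls stood below the other 9 arrays. Insig1 was 1.95-fold higher in the cold at 1 week (log2 0.97, SE 0.21, adjusted p = 0.0026) and differed by 0.07 at 5 weeks (adjusted p = 0.81). Its controls of 5 weeks were 2.33-fold above those of 1 week (log2 1.22, adjusted p = 0.014). At 1 week its call was lost with the Gapdh covariate (0.70) and without control replicates 2 and 3 (0.82).

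Srebf2, which encodes SREBP-2, read 8.62, 8.34 and 8.32 in the 1 week controls and 8.30, 8.25 and 8.21 in the cold. The cold arrays lay just below the controls, and the difference of -0.17 did not pass the test (SE 0.09, adjusted p = 0.13). At 5 weeks it was -0.05 (adjusted p = 0.725). Scap, the escort of SREBP, differed by -0.05 at 1 week (adjusted p = 0.72) and -0.13 at 5 weeks (adjusted p = 0.38), with all 12 arrays between 8.85 and 9.20. Insig2, the second retention protein, differed by 0.04 (adjusted p = 0.70) and 0.15 (adjusted p = 0.14), with arrays between 9.91 and 10.19. The array measures transcript only, and not the cleavage of SREBP-2.

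Stard4, a soluble protein that carries cholesterol between membranes, fell at both times. It read 8.36, 8.41 and 8.61 in the 1 week controls and 7.62, 7.55 and 7.81 in the cold. Values at 5 weeks were 8.52, 8.54 and 8.43 in controls and 7.82, 8.02 and 8.24 in the cold. All 6 cold arrays were below all 6 controls, and further below at 1 week. The fall was 1.74-fold at 1 week (log2 -0.80, SE 0.12, adjusted p = 0.00026) and 1.39-fold at 5 weeks (-0.47, adjusted p = 0.0094). The 5 week call was lost with centred arrays (-0.31) and with the Actb covariate (-0.71). Its second probe set, also lower at 1 week (-0.82), read -0.07 at 5 weeks (adjusted p = 0.61). The third, dimmer, read -0.17 at 1 week (adjusted p = 0.74) and -1.04 at 5 weeks (adjusted p = 0.061). Npc1, which lets cholesterol out of lysosomes, read 7.42, 7.58 and 7.54 in the 1 week controls and 7.21, 7.39 and 6.88 in the cold (-0.36, SE 0.14, adjusted p = 0.057). At 5 weeks it differed by -0.21 (adjusted p = 0.28).

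By their brightest probe sets, both efflux pumps fell at both times. Abca1, the pump that loads lipid-poor apolipoprotein A-I, read 11.94, 12.42 and 12.07 in the 1 week controls and 11.58, 11.28 and 11.85 in the cold. Its 5 week values were 12.11, 12.12 and 12.02 in controls and 11.50, 11.44 and 11.53 in the cold. All cold arrays were below all controls. The fall was 1.49-fold at 1 week (log2 -0.57, SE 0.15, adjusted p = 0.0075) and 1.51-fold at 5 weeks (-0.60, adjusted p = 0.0088).

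Abcg1, which moves cholesterol to high-density lipoprotein, read 9.64, 9.93 and 10.14 in the 1 week controls and 9.34, 9.38 and 9.43 in the cold. By 5 weeks the signal was 10.10, 9.97 and 10.05 in controls and 9.05, 9.32 and 9.40 in the cold. Again all cold arrays were below all controls. The fall was 1.43-fold at 1 week (log2 -0.52, SE 0.13, adjusted p = 0.0060) and 1.72-fold at 5 weeks (-0.78, adjusted p = 0.00080). With centred arrays the 1 week calls of Abca1 (-0.35) and Abcg1 (-0.30) were lost. They were also lost with the Gapdh covariate (-0.45 and -0.27) and without control replicates 2 and 3 of 1 week (-0.37 and -0.25). With the Actb covariate both lost their 5 week calls, at differences of -0.63 and -0.93 that were no smaller than reported.

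Nr1h3, which encodes the liver X receptor alpha that controls both pumps, read 8.29, 7.93 and 7.69 in the 1 week controls and 8.44, 8.39 and 8.67 in the cold. The 5 week arrays read 8.18, 8.12 and 8.16 in controls and 7.57, 7.66 and 7.29 in the cold. It was thus above its controls at 1 week and below them at 5 weeks, and differed in direction from the pumps at 1 week. The rise was 1.44-fold (log2 0.53, SE 0.15, adjusted p = 0.013) and the fall 1.56-fold (-0.64, adjusted p = 0.0063). The rise was lost without control replicate 3 (0.39) or cold replicate 3 (0.44) of 1 week, with the Gapdh covariate (0.13) and without control replicates 2 and 3 together (0.21). The fall at 5 weeks was lost with the Actb covariate (-0.20).

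Macrophage, lymphocyte and fibroblast markers were mostly lower in the cold, as the pumps were. Of 17 macrophage markers tested, 11 fell and 1 rose at 1 week, and 13 fell and 0 rose at 5 weeks, where 31.6% and 21.2% of all genes fell. Their mean log2 signal was 10.1 to 10.2 in the 1 week controls and 9.64 to 9.83 in the cold, and 10.4 in each 5 week control and 9.50 to 9.71 in the cold, so that the groups did not overlap. The log2 of their summed signal was 16.2 to 16.3 in controls and 15.7 to 15.9 in the cold over both times. All 17 were above the signal minimum. All 11 T and B lymphocyte markers tested, of 14 listed, fell at both times, and the log2 of their summed signal was 13.3 to 14.0 in controls and 12.5 to 13.1 in the cold. Of 10 fibroblast and adipose progenitor markers tested, of 11 listed, 8 fell and 0 rose at both times, with summed signals of 15.5 to 15.7 in controls and 15.1 to 15.2 in the cold. The part of macrophages, lymphocytes or fibroblasts in the fall of Abca1, Abcg1 and Stard4 was not tested: with the macrophage marker mean as a covariate 0 uptake or efflux genes were called lower at either time, but that mean separates cold from control by itself, and 906 of all genes were called at 1 week and 4 at 5 weeks.

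**Figure D4:**
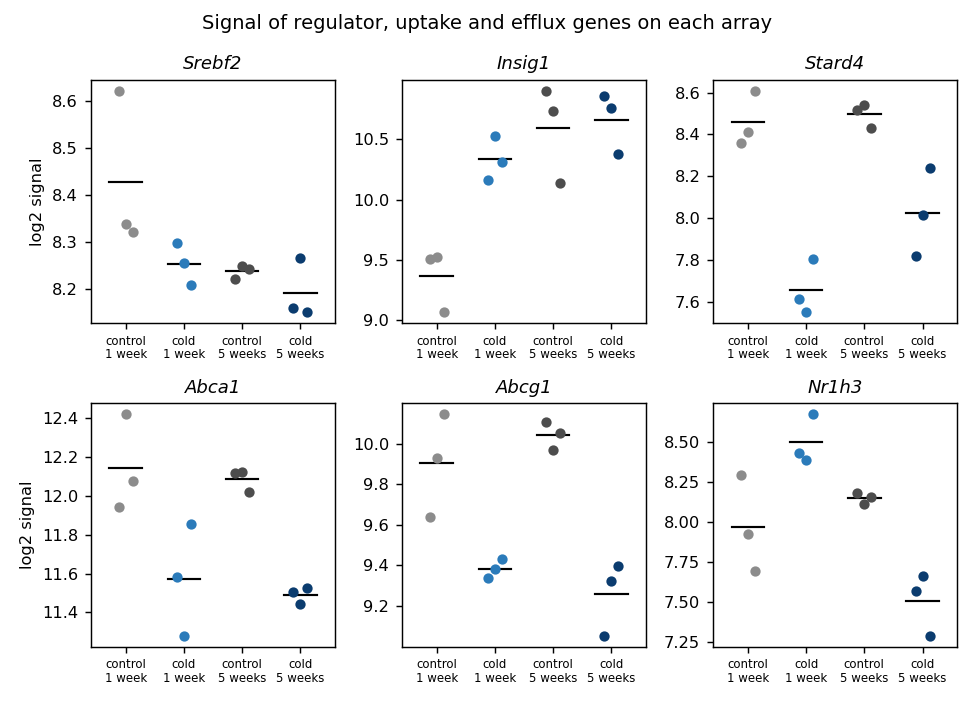
Log2 signal of Srebf2, Insig1, Stard4, Abca1, Abcg1 and Nr1h3 on each of the 12 arrays in the 4 groups; points are arrays and black lines group means, and each panel has its own log2 axis that does not start at 0. Stard4, Abca1 and Abcg1 are lower in all cold arrays than in all controls, Nr1h3 is above its controls at 1 week and below at 5 weeks, and the 1 week controls of Insig1 are below the other 9 arrays.

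A wider list of 55 genes of sterol handling, of which 45 were tested, went in both directions. At 1 week 9 rose (20%) and 15 fell (33.3%), against 17.9% and 31.6% of all genes, and at 5 weeks 8 rose (17.8%) and 13 fell (28.9%), against 15% and 21.2%. Counts of its 3 sections are given as description beside the same shares of all genes. They include Gramd1c, Cyp7b1 and Cyp39a1, whose calls rest on a group below the signal minimum on every array. Among 13 other genes of synthesis and the SREBP machinery, 3 rose (23.1%) and 5 fell (38.5%) at 1 week. Acly (0.66), Acss2 (0.97) and Aacs (0.94), which supply acetyl-CoA or acetoacetyl-CoA, were those that rose. Those that fell were Lbr (-0.80), a sterol reductase of the nuclear membrane, Mbtps1 (-0.30) and Mbtps2 (-0.74), the proteases that cleave SREBP, Rnf139 (-0.41), and Erlin1 (-1.01, 2.01-fold, adjusted p = 0.00017), which takes part in the breakdown of HMG-CoA reductase. At 5 weeks Acly (0.61) and Acss2 (0.49) rose, and Lbr (-0.78), Mbtps1 (-0.42), Srebf1 (-0.49) and Tmem97 (-0.73) fell.

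Among 18 other genes of uptake and transfer, 4 rose and 4 fell at 1 week (22.2% each), and 6 rose and 6 fell at 5 weeks (33.3% each). Vldlr, a receptor that takes up triglyceride-rich lipoproteins, read 10.88, 11.05 and 10.60 in the 5 week controls and 12.06, 11.97 and 12.39 in the cold. Every cold array was higher, by 2.46-fold in the mean (log2 1.30, SE 0.19, adjusted p = 0.00037), while at 1 week the groups overlapped (0.31, adjusted p = 0.20). Gramd1a, a carrier of sterol from the plasma membrane to the endoplasmic reticulum, read 9.52, 9.47 and 9.60 in the 5 week controls and 8.51, 8.71 and 8.27 in the cold, 2.04-fold lower (-1.03, SE 0.16, adjusted p = 0.00051). Its relative Gramd1c was below log2 4 in the 5 week controls and at 4.24, 4.73 and 5.00 in the cold, at least 1.58-fold higher with signals below 4 set to 4. It passed the minimum through the cold arrays, so no test of this difference is given. Lipa, the lysosomal lipase that frees cholesterol from its esters, rose at both times (0.88 and 0.69). Mylip, which marks lipoprotein receptors for breakdown, fell at both (-0.39 and -0.72).

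Among 14 other efflux genes, liver X receptor targets and oxysterol enzymes, 2 rose (14.3%) and 6 fell (42.9%) at 1 week, and 0 rose and 3 fell (21.4%) at 5 weeks. Apoe, an apolipoprotein secreted by macrophages and adipocytes, read 13.75, 13.82 and 13.75 in the 5 week controls and 12.60, 12.78 and 12.26 in the cold. It was 2.34-fold lower at 5 weeks (log2 -1.23, SE 0.12, adjusted p = 3.44e-05) and 1.42-fold lower at 1 week (-0.50, adjusted p = 0.0059). Lpcat3, a phospholipid enzyme and liver X receptor target, read 10.02, 9.46 and 9.25 in the 1 week controls and 10.65, 10.70 and 10.73 in the cold, 2.17-fold higher (1.12, SE 0.17, adjusted p = 0.00028). At 5 weeks it differed by -0.05 (adjusted p = 0.85). The lower 1 week controls of Lpcat3 were replicates 2 and 3, the arrays with high Gapdh 3′ minus 5′ signal. No gene of the wider list was followed with that signal as a covariate or without those arrays. Cyp39a1, an oxysterol hydroxylase, read 4.44 to 4.48 in the 1 week controls and was below 4 on all other arrays, at least 1.37-fold lower in the cold at 1 week. It passed the minimum only through those 3 controls, so this is a description with no test.

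The cold effect differed between the times in 8 of the 26 genes, against 19.9% of all genes (11.5% with a higher and 8.39% with a lower value at 5 weeks). In all 8 the log2 difference of the brightest probe set was lower at 5 weeks than at 1 week. They were Fdps (-1.66, SE 0.32, adjusted p = 0.0085), Tm7sf2 (-1.88, SE 0.34, adjusted p = 0.0069), Nr1h3 (-1.17, SE 0.21, adjusted p = 0.0068), Ebp (-0.94, adjusted p = 0.0081), Mvd (-0.85, adjusted p = 0.027), Sc5d (-0.83, adjusted p = 0.015), Mvk (-0.76, adjusted p = 0.040) and Nsdhl (-0.58, adjusted p = 0.049). Fdps, Tm7sf2, Nr1h3, Ebp and Sc5d kept this call whichever single array was left out. Mvd kept it in 7 of 12 such fits, Mvk in 3 and Nsdhl in 2, with the differences between -0.99 and -0.70, -0.94 and -0.61, and -0.72 and -0.49. Other probe sets of Sc5d gave -0.14 (adjusted p = 0.71) and -1.49 (adjusted p = 0.034) in the same test. The second probe set of Mvk gave -0.29 (adjusted p = 0.22) and that of Mvd -1.99 (adjusted p = 0.011). Without control replicate 2 or 3 of 1 week, 5 of the 26 were called. With the Gapdh covariate, the Actb covariate, or without both of those controls, 0 were called.

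Compared within the cold, 5 weeks against 1 week, 14 of the 26 genes were lower and 1, Stard4, was higher by their brightest probe sets. Among all genes 12% were lower and 15.4% higher (27.5% either). The rise of Stard4 (0.37) was not shared by its dimmest probe set, which was called lower (-2.60, limma adjusted p = 0.0014). Of the 17 synthesis genes 13 were lower, with Tm7sf2 at -1.79 (adjusted p = 0.00082) and Fdps at -1.73 (adjusted p = 0.00079) furthest. Compared within the controls, 2.55% of all genes were called, 1.28% higher and 1.27% lower at 5 weeks. Among the 26 genes Insig1 was higher at 5 weeks. Idi1 (-0.45, adjusted p = 0.041), Fdft1 (-0.69, adjusted p = 0.025), Sqle (-0.47, adjusted p = 0.019) and Cyp51 (-0.72, adjusted p = 0.0435) were lower. For these 5 genes the cold effects of 1 week and 5 weeks are thus measured against controls that differ. Probe sets other than the brightest were also called lower in the 5 week controls for Hmgcs1 (-0.72, adjusted p = 0.021) and Srebf2 (-0.83, adjusted p = 0.036). Those of Stard4 were too (-0.41, adjusted p = 0.047, and -1.73, adjusted p = 0.038). The second probe sets of Idi1, Fdft1 and Cyp51 were not called between the controls.

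More than 1 probe set passed the minimum for 14 of the 26 genes, with p-values adjusted over 22391 probe sets. For cold against control, 0 of these genes were called in opposite directions by their own probe sets at either time. The sign of that difference was shared by all probe sets of a gene in 11 of the 14 at 1 week and in 8 at 5 weeks. Within the cold, 5 weeks against 1 week, probe sets of Stard4 were called in opposite directions by limma's test. The brightest (0.37, adjusted p = 0.042) and the next (0.34, adjusted p = 0.026) were higher, and the dimmest (-2.60, adjusted p = 0.0014) was lower. The 3 probe sets of Sc5d rose at 1 week, by 0.46, 0.50 and 1.58, and read -0.37, 0.35 and 0.10 at 5 weeks, none called. Mvd was called higher at 1 week by its dimmer probe set (1.26, adjusted p = 0.0051), though not by the brighter. Hmgcs1 differed by 0.13 to 0.64 at 1 week over 5 probe sets, 2 of them called, and by 0.13 to 1.15 at 5 weeks, 3 called. The 3 of Abca1 fell at 5 weeks, by 0.60, 1.03 and 1.23 on the log2 scale, but read -0.57, -0.17 and 0.32 at 1 week, only the first called. The second, dimmer probe set of Abcg1 read -0.54 at 1 week (adjusted p = 0.14) and -0.20 at 5 weeks (adjusted p = 0.63). The second probe set of Lss gave 0.52 at 1 week (adjusted p = 0.068) and 0.11 at 5 weeks. The second of Hsd17b7 read -0.23 at 5 weeks, where the brightest rose, and the second of Cyp51 read -0.05 at 1 week. None of these second values passed the test. For the difference of the cold effect between times, probe sets other than the brightest gave further calls. Hmgcs1 (0.73, adjusted p = 0.025) and Stard4 (0.75, adjusted p = 0.0070) were called higher at 5 weeks in this way, and Abca1 (-1.55, adjusted p = 0.016) lower.

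**Figure D5:**
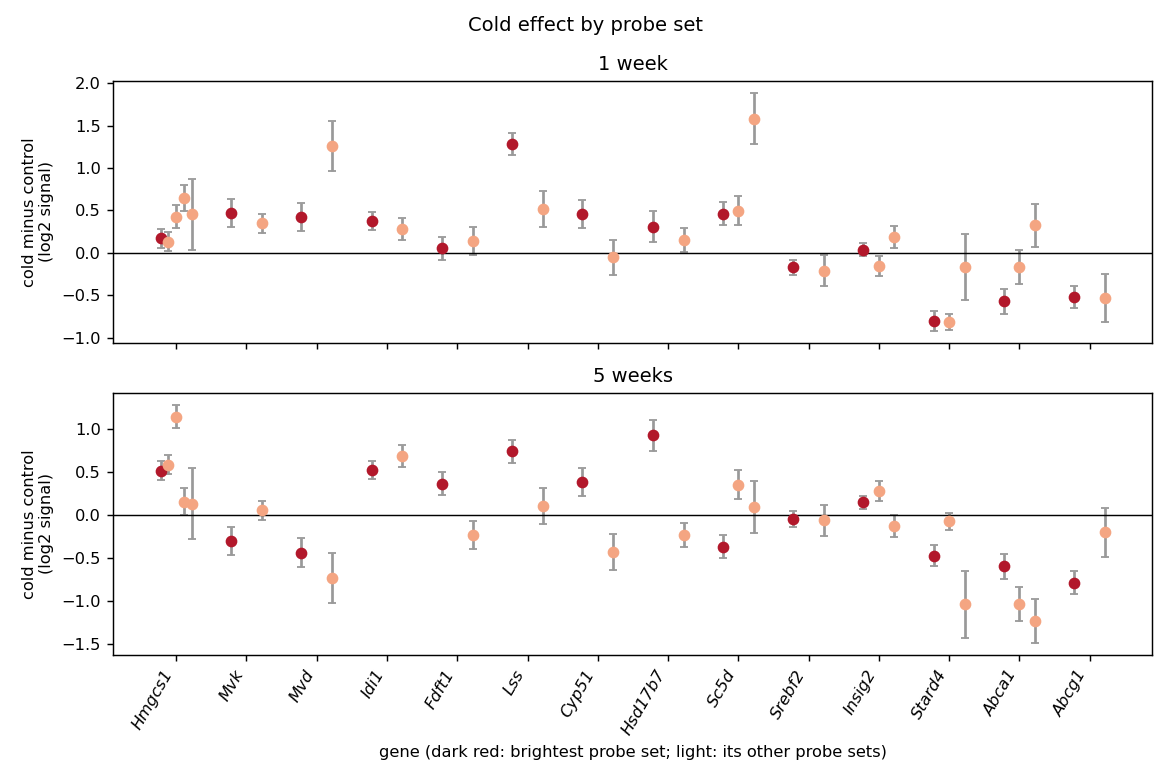
Log2 difference, cold minus control, with its standard error for each probe set of the 14 genes that have more than 1 above the minimum, at 1 week (upper panel) and 5 weeks (lower panel); dark red marks the brightest probe set of a gene. Probe sets of Sc5d lie from 0.46 to 1.58 at 1 week and those of Abca1 from -1.23 to -0.60 at 5 weeks, while Hsd17b7 and Cyp51 at 5 weeks have probe sets on both sides of 0.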

How the data were processed

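The values deposited by the authors are log2 signals of 45101 probe sets on 12 arrays. They were made with GCRMA, per the submitters' processing notes; its version is not given in the sources used here. Per the labels' protocols, biotin-labelled cRNA came from 5 µg of Trizol-extracted RNA. GCRMA subtracts background by probe sequence and normalizes arrays to each other, so a shift of all genes may be removed. The deposited arrays still differed in their upper quartile, at 7.57 to 7.65 in the cold and 7.75 to 7.80 in controls.

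Probe sets were named from the array annotation and updated by gene identifier. Of these, 34958 named 1 gene, 932 several and 9211 none. Probe sets above log2 4 on at least 3 arrays were kept, the brightest for each gene. limma 3.58.1 in R 4.3.3 (lmFit, eBayes) fitted 4 group means to all 12 arrays, with 2-sided tests and Benjamini-Hochberg adjustment over 12856 genes at 0.05. Tested on simulated data for 1 week, it recovered 18 of 67 genes changed by log2 0.5, 48 of 67 by 1 and 65 of 66 by 2, with 9 others called. Only these genes were changed there, far fewer than the 6362 called in the real 1 week data. The adjustment is stricter where fewer genes change, so this recovery need not hold for the real data. Alternatives covered scaling, filter, probe sets, prior, covariates, a replicate block and left-out arrays.

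Members and lists were chosen with earlier results of these data known. All members are accounted for, with every array's value for those called at 1 week or 5 weeks whose cold arrays lay beyond the controls. Genes of the wider list are named where called and at least 2-fold; others of it (Acly, Acss2, Aacs, Lbr, Mbtps1, Mbtps2, Rnf139, Srebf1, Tmem97, Lipa and Mylip) were picked once values had been seen, as were the array values of Mvk, Mvd, Cyp51, Srebf2 and Npc1.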

Additional observations from a re-analysis of the deposited data

Results flagged for a closer look

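Differences are given in log2 units, as the 5 week minus the 1 week cold effect. By their brightest probe sets, 8 genes passed limma's test of that difference (adjusted p under 0.05). These were Mvk (-0.76), Mvd (-0.85), Fdps (-1.66), Tm7sf2 (-1.88), Nsdhl (-0.58), Ebp (-0.94), Sc5d (-0.83) and Nr1h3 (-1.17). All 8 were also lower in the cold at 5 weeks than in the cold at 1 week. Of the 45 tested genes of the wider list, 6 were called higher (13.3%) and 5 lower (11.1%), against 11.5% and 8.39% of all genes. These counts include Cyp39a1, which passed the signal minimum only through the 1 week controls. Erlin1 (0.66), Vldlr (0.99), Gramd1a (-0.97), Apoe (-0.72) and Lpcat3 (-1.16) were among those called. They are named because they also changed at least 2-fold at 1 week or 5 weeks. Genes of the wider list were not followed under the alternatives. Gramd1a also differed between the controls of both times (0.75, adjusted p = 0.032).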

How the results depend on the processing

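Over 1924 values of single genes under the alternatives, 1623 kept direction and side of the threshold, 165 lost a call, 69 gained one, 3 reversed and 64 changed sign without a call. Part of this agreement was fixed in advance. Leaving out an array of 1 time cannot move the log2 difference at the other time, only its test. Pmvk, Fdps and Nsdhl at 1 week stayed called in all 25 alternatives. The reversed values were Msmo1 at 5 weeks with the Actb covariate (0.0076), and Cyp51 at 1 week (-0.088) and Ebp at 5 weeks (0.080) with the macrophage covariate. As reported, 12 synthesis genes were higher and 1 lower at 1 week, 7 and 2 at 5 weeks, 3 and 4 uptake and efflux genes were lower, and 8 members differed between the times. With centred arrays 0 synthesis and 1 uptake or efflux gene were lower at 1 week, and with quantile normalization 0 synthesis genes were. With the Gapdh covariate these counts were 6 synthesis genes higher and 1 uptake or efflux gene lower at 1 week, and 0 differing, with 3036 of all genes called at 1 week. With the Actb covariate 1 synthesis gene was higher, 0 lower and 0 uptake or efflux genes lower at 5 weeks, 0 differed, and 795 genes were called at 5 weeks. With the muscle covariate 0 synthesis genes were lower at 5 weeks, 3 members differed, and 2398 genes were called at 5 weeks. With the macrophage covariate 3 and 0 synthesis genes were higher, 0 lower and 0 uptake or efflux genes lower at either time, 0 members differed, and 906 and 4 genes were called. Without control replicates 2 and 3 of 1 week together, 5 synthesis genes were higher, 0 lower and 1 uptake or efflux gene lower at 1 week, 0 members differed, and 2885 genes were called. The cause of these changes was not tested. Leaving out each array in turn gave 8 to 13 synthesis genes higher and 0 to 1 lower at 1 week, 7 to 9 higher and 2 to 4 lower at 5 weeks, and 5 to 10 differing. With the replicate block 13 synthesis genes were higher at 1 week, 7 at 5 weeks and 8 members differed. Deviations of same-numbered arrays from their group means correlated at -0.11 to 0.18. Arrays with different numbers were not compared, so these correlations do not settle whether the numbers pair arrays. The simulated data had far fewer changed genes than the 6362 called at 1 week. Their recovery of changes of log2 0.5 therefore does not give the share missed here.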

Other observations

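Other genes of the wider sterol list were called as well, and they are named here with their values already seen. Lysosomal and endosomal genes went in both directions. Scarb2, a lysosomal membrane protein, rose by 0.63 at 1 week and 0.30 at 5 weeks on the log2 scale. Npc2, the soluble partner of Npc1 in the lysosome, differed by -0.05 at 1 week (adjusted p = 0.71) and was lower by limma's test at 5 weeks (-0.44, adjusted p = 0.010). Lrp1, a large endocytic receptor, and Nceh1, which splits cholesterol esters, were lower at 5 weeks (-0.79 and -0.51).

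Among carriers between membranes, Osbpl2 rose at both times (0.29 and 0.51), Stard5 rose at 1 week (0.64) and Osbp at 5 weeks (0.36). Gramd1b was lower at both times (-0.57 and -0.46), and Stard3 and Cav1 at 1 week (-0.43 and -0.37). Apod, an apolipoprotein abundant in connective tissue, was lower at both times (-0.81 and -0.98). The retinoid X receptors, partners of the liver X receptors, were called at different times: Rxrb was higher at 1 week (0.35, adjusted p = 0.0066) and Rxra lower at 5 weeks (-0.40, adjusted p = 0.0345). Whether the cold effect on either receptor differs between times did not pass limma's test of that difference (-0.17, adjusted p = 0.372 for Rxrb and -0.32, adjusted p = 0.251 for Rxra).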
